A study of Helianthus annuus with 2 samples.

Results

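Chromosome 15 of sunflower, which carries the seed regulators VIV1 and FUS3, held 7695 of the 123464 H3K4me3 peaks in the list labelled 28 DAA and 10131 of the 165079 in the list labelled 13 DAA (DAA, days after anthesis). These are 6.23% and 6.14% of the lists. The members are all intervals that either list places on this chromosome, with no selection among them by a measured value. The chromosome itself was chosen with earlier results of these data known. The other 16 chromosomes held 114720 peaks at 28 DAA and 152693 at 13 DAA.

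The data come from ChIP-Seq, in which DNA fragments bound to a modified histone are pulled down with an antibody and sequenced. Both groups were developing seeds of the high-oleic sunflower mutant line CAS-9, grown in growth chambers, and both were immunoprecipitated with an anti-H3K4me3 antibody. The groups differed in age, with the late stage of fatty acid synthesis at 28 DAA and the early stage at 13 DAA. Each stage had 1 library. Replicate error could not be estimated, the stages were not tested against each other, and each comparison is one between 2 libraries. The labels name the material only as developing seed, so a change in the mix of seed tissues and a change of the mark within a tissue cannot be told apart.

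The peak totals of the lists are exchanged between the stages in the study's text. The fold enrichments that it tabulates for VIV1 and FUS3 were found in overlapping peaks of the lists with the matching labels. These peaks were located by looking for those values, with no gene model checked. The match is therefore no independent check of the labels. Stage names below follow the labels of the lists, and every direction between stages rests on these labels.

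H3K4me3, histone H3 trimethylated at lysine 4, is a mark found mainly around the start of transcribed genes in plants and animals. VIV1 is the sunflower homologue of ABI3, and FUS3 that of the Arabidopsis gene of the same name. Both belong to the B3 domain transcription factors. In Arabidopsis, ABI3 and FUS3 are among the regulators of the maturation programme of the seed, including storage oil and storage proteins.

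Chromosome 15 was among the densest chromosomes in both lists. With the end of its last peak, 171238457, taken as its length, it had 44.9 peaks per Mb at 28 DAA, rank 3 of 17, and 59.2 per Mb at 13 DAA, rank 1. The other 16 chromosomes spanned 32.9 to 46.1 peaks per Mb at 28 DAA and 48.4 to 59.0 at 13 DAA. Although there were fewer peaks at 28 DAA, they covered more of the chromosome, with 2.95 Mb or 1.72% at 28 DAA and 2.28 Mb or 1.33% at 13 DAA. The order of the peak numbers depends on the threshold of the lists. When the q-value was limited to 1e-10, 5841 peaks remained at 28 DAA (75.9%, against 75.9% of all peaks of the list) and 2648 at 13 DAA (26.1%, against 25.0%).

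Peaks were present in every one of the 171 whole 1 Mb windows of the chromosome. A window held between 6 and 123 peaks at 28 DAA (median 42) and between 25 and 98 at 13 DAA (median 58). With all peaks counted, the counts were more uneven at 28 DAA than at 13 DAA. The SD over windows was 19.98 peaks around a mean of 44.9 at 28 DAA and 13.99 around 59.2 at 13 DAA. When the q-value was limited to 1e-10, the SD was 16.00 around a mean of 34.1 at 28 DAA and 6.92 around 15.5 at 13 DAA. Relative to the mean, the SD was then similar at both stages, so this stage difference depends on the threshold of the lists. Windows rich at one stage tended to be rich at the other (Pearson's r = 0.761 and Spearman's rho = 0.747 across 171 windows). This is a description, since neighbouring windows are not independent (Pearson's r with the next window 0.463 at 28 DAA and 0.190 at 13 DAA). Both lists also refer to the same sequence, whose mappable and gene content was not analysed.

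**Figure D1:**
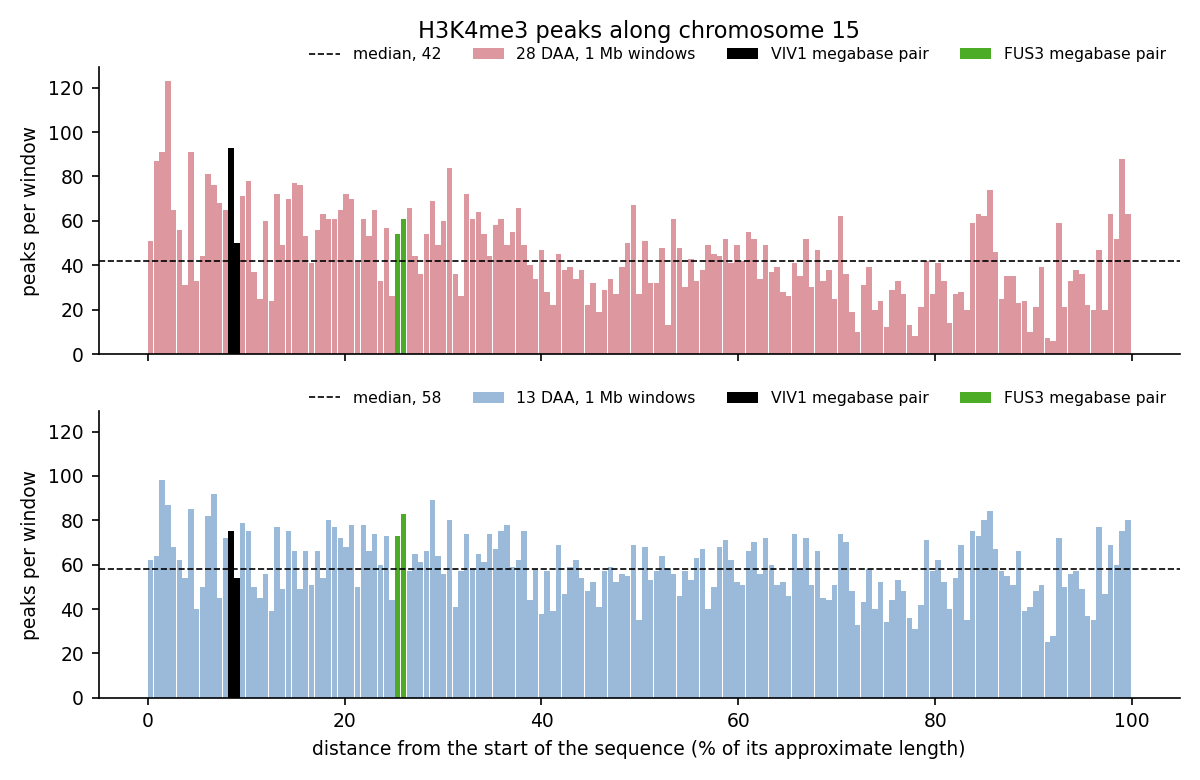
Number of H3K4me3 peaks in 1 Mb windows along chromosome 15, with the position given as a percentage of its length, for the lists labelled 28 DAA and 13 DAA. Windows held 6 to 123 peaks at 28 DAA and 25 to 98 at 13 DAA. Most of the lowest counts at 28 DAA lie beyond 120 Mb, while the window from 169 to 170 Mb, near the end, holds 88 peaks.

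The first part of the chromosome was richer in marked intervals. In the first 85.6 Mb there were 4596 peaks at 28 DAA, and in the remaining 85.6 Mb 3099, a ratio of 1.48. At 13 DAA the numbers were 5383 and 4748, a ratio of 1.13. There were 0.854 peaks at 28 DAA per peak at 13 DAA in the first 85.6 Mb and 0.653 in the remainder. When the q-value was limited to 1e-10, these stage ratios were 2.28 and 2.10, above 1 in both parts. Under the same limit of 1e-10 the first-to-second ratios were closer, 1.51 at 28 DAA and 1.39 at 13 DAA. An uneven distribution was not particular to this chromosome. Each chromosome was split at its middle, and the richer part was set over the poorer, whichever came first. For that ratio chromosome 15 ranked 10 of 17 at 28 DAA and 11 of 17 at 13 DAA. Which part was richer on the other chromosomes is not given.

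In the 17 whole stretches of 10 Mb, the density at 28 DAA was 67.2 peaks per Mb in the first stretch and lowest, at 24.5, between 150 and 160 Mb. At 13 DAA it stayed between 47.1 and 69.7 peaks per Mb. The remaining end beyond 170 Mb had 58.9 peaks per Mb at 28 DAA and 75.1 at 13 DAA. The number of 28 DAA peaks per 13 DAA peak was 1.00 in the first stretch and lowest, at 0.52, between 150 and 160 Mb. It did not fall steadily, with 0.75 between 40 and 50 Mb, 0.87 between 50 and 60 Mb and 0.75 between 160 and 170 Mb. When the q-value was limited to 1e-10, this ratio was 2.26 in the first stretch and 1.91 between 150 and 160 Mb. Under that limit it spanned 1.78 to 2.56 over the 17 whole stretches, and was lowest between 120 and 130 Mb. The size of the fall along the chromosome thus depends on the threshold of the lists. The share of 13 DAA peaks that overlapped a 28 DAA peak was 39.4% in the first stretch and lowest, at 20.97%, between 120 and 130 Mb.

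**Figure D2:**
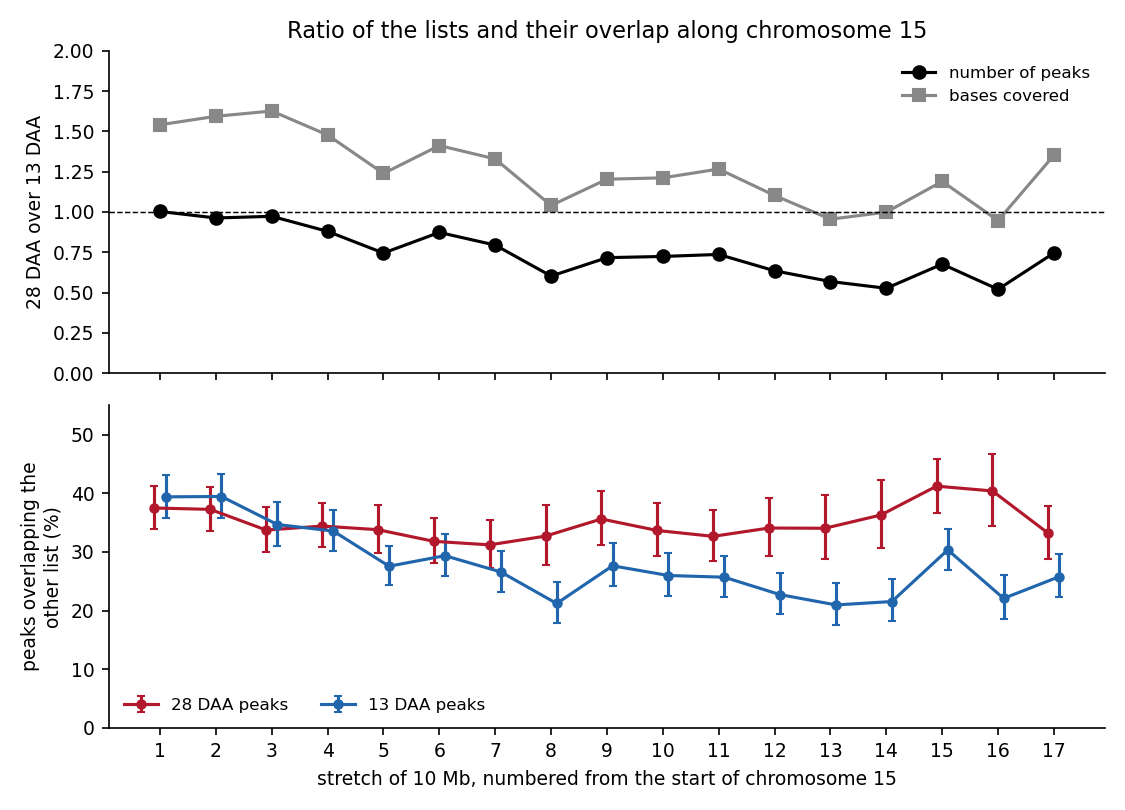
Ratio of the lists (28 DAA over 13 DAA) in peak number and covered bases, above, and percentage of peaks overlapping the other list with Wilson 95% intervals, below, in stretches of 10 Mb numbered from the start of chromosome 15. With all peaks counted, the number of 28 DAA peaks per 13 DAA peak is 1.00 in the first stretch and 0.52 in the stretch that begins at 150 Mb. With the q-value limited to 1e-10, these ratios are 2.26 and 1.91.

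Most of the densest windows lay in the first 60 Mb. At 28 DAA the densest were 3 to 4 Mb with 123 peaks, 14 to 15 Mb with 93, and 2 to 3 Mb and 7 to 8 Mb with 91 each. The next, with 88, was at the other end, from 169 to 170 Mb. At 13 DAA they were 2 to 3 Mb with 98 peaks, 11 to 12 Mb with 92 and 49 to 50 Mb with 89. Of the 17 windows with at least 71 peaks at 28 DAA, 15 lay in the first 60 Mb, as did 14 of the 19 with at least 77 peaks at 13 DAA, and 9 windows belonged to both.

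The same 3 windows had the fewest peaks in both lists. The window from 157 to 158 Mb held 6 peaks at 28 DAA and 28 at 13 DAA. The window from 156 to 157 Mb held 7 and 25 peaks at these stages, and that from 133 to 134 Mb 8 and 31. Beyond 120 Mb lay 16 of the 18 windows with at most 21 peaks at 28 DAA and 12 of the 18 with at most 40 at 13 DAA.

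More peaks at 28 DAA than at 13 DAA were found in 21 of 171 windows, 15 of them in the first 60 Mb, and fewer in 149. The highest stage ratios were 1.55 at 26 to 27 Mb, with 76 peaks at 28 DAA and 49 at 13 DAA, and 1.51 at 12 to 13 Mb, with 68 and 45. The lowest were 0.214 at 157 to 158 Mb and 0.224 at 90 to 91 Mb, where 13 peaks at 28 DAA stood against 58 at 13 DAA. Under the limit of 1e-10 on the q-value, fewer peaks at 28 DAA than at 13 DAA were left in 2 of the 171 windows. Covered bases were larger at 28 DAA in 129 of the 171 windows.

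The longest stretches without a peak were found at 28 DAA. They ran over 588 kb from 133318825 to 133907116, over 574 kb from 156307993 to 156881978 and over 569 kb from 157282728 to 157851555. At 13 DAA the longest was 180 kb, from 118180361 to 118360583. Gaps over 100 kb numbered 389 at 28 DAA and 79 at 13 DAA, and 52 when the peaks of both lists were joined. The median gap was nevertheless shorter at 28 DAA, 6.27 kb, than at 13 DAA, 10.3 kb. All peaks of the lists were used here, and gaps were not recomputed under the stricter q-value.

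The peaks were wider at 28 DAA. Their median width was 286 bp (95% interval 282 to 291, quartiles 205 and 465) at 28 DAA and 189 bp (187 to 191, quartiles 151 and 258) at 13 DAA. These intervals cover the sampling of peaks within 1 library only. Both medians ranked second of 17 chromosomes, within narrow ranges over the other 16 of 274 to 289 bp at 28 DAA and 183 to 190 bp at 13 DAA. Peaks of at most 200 bp made up 23.1% at 28 DAA and 55.5% at 13 DAA. The lists also differed in their shortest width, 161 bp at 28 DAA (377 peaks, 4.90%) and 134 bp at 13 DAA (1031 peaks, 10.2%). The part of this limit in the stage difference in width was not tested. Peaks wider than 1000 bp numbered 312 at 28 DAA (4.05%, Wilson 95% interval 3.64 to 4.52, against 3.50% of the whole list) and 6 at 13 DAA (0.0592%, 0.0271 to 0.129, against 0.167%).

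**Figure D3:**
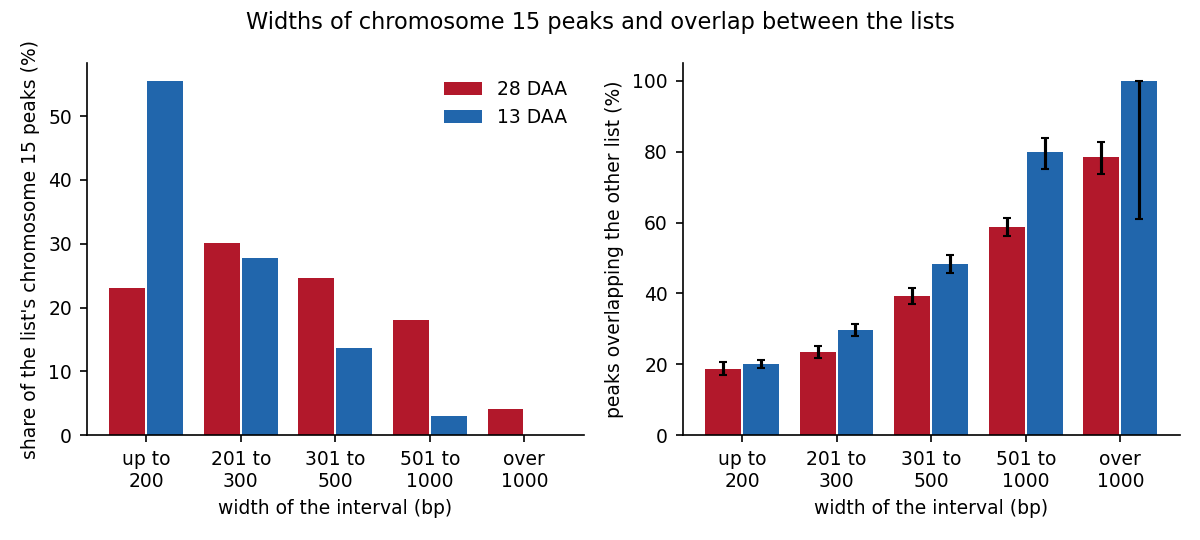
Percentage of the chromosome 15 peaks of each list in 5 width classes (left) and percentage of each class overlapping the other list, with Wilson 95% intervals (right). Of the peaks of at most 200 bp, 18.7% at 28 DAA and 20.05% at 13 DAA overlap a peak of the other list, against 78.5% and 100% of those wider than 1000 bp, the last being 6 of 6 peaks.

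The widest peak at 28 DAA extended from 55153836 to 55156234, over 2399 bp, and overlapped 2 peaks at 13 DAA of 1262 and 557 bp. The second widest, 2183 bp from 169407815 to 169409997, overlapped none. The third, 1969 bp from 77832174 to 77834142, overlapped 3. At 13 DAA the widest peak was 1535 bp long, from 7123535 to 7125069, with a fold enrichment of 2.40. The next were the 1262 bp peak already given and one of 1162 bp from 83889565 to 83890726, which lay within a 28 DAA peak of 1260 bp.

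The fold enrichment of a peak is the number of fragments piled up at its summit over the number expected from the local background, as the peak caller gives it. On chromosome 15 its median was 5.81 at 28 DAA (quartiles 4.52 and 7.92) and 5.13 at 13 DAA (4.45 and 6.003), ranks 15 and 13 of 17. Summit fragments, which follow from fold enrichment and p-value together, had medians of 46 (28 DAA) and 19 (13 DAA). The median local background was 7.04 fragments at 28 DAA and 2.81 at 13 DAA. The number of fragments thus differed more between the lists than the fold did. The parts of library depth and of the pseudocount in this were not tested.

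The 3 highest fold enrichments at 28 DAA were 25.9, 24.3 and 21.9, over low local backgrounds of 2.79, 3.08 and 4.20 fragments. The first peak, from 43479019 to 43479316, had 97 fragments at its summit, rank 1308 of 7695, and overlapped no peak at 13 DAA. It lies in the first of the megabases at 43 to 45 Mb, at some distance from the peaks traced to FUS3. The second, from 46577858 to 46578163, overlapped a 13 DAA peak with a fold of 12.9, and the third, from 16314169 to 16314545, one with 6.13. At 13 DAA the highest was 18.1, from 17569671 to 17570011, and it overlapped a 28 DAA peak with 19.8. The next were 16.6 from 68039010 to 68039349, with 18.0 in the overlapping 28 DAA peak, and 15.2 from 171157971 to 171158224, with 10.0. Local backgrounds of these 3 peaks at 13 DAA were 2.10, 2.13 and 3.86 fragments, the first being the lowest of that list.

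Most peaks were found in 1 list only. A peak is called shared where it overlaps a peak of the other list by at least 1 bp. At 28 DAA 2680 peaks overlapped a 13 DAA peak (34.8%, Wilson 95% interval 33.8 to 35.9), against 33.9% of the whole list. At 13 DAA 2883 peaks overlapped a 28 DAA peak (28.5%, 27.6 to 29.3), against 27.2%. The ranks among 17 chromosomes were 4 and 5. Which list had the larger share depends on the number of peaks compared. With the q-value limited to 1e-10 it was 20.6% at 28 DAA and 48.3% at 13 DAA, and with the same number of strongest peaks 31.0% and 33.4%.

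Overlap went with width in both lists, as the plot of widths shows. It also went with strength. When the peaks were put into 10 classes of equal size by p-value, 84.8% of the strongest class at 28 DAA and 74.9% at 13 DAA were shared. In the weakest class these shares were 34.2% at 28 DAA and 12.6% at 13 DAA, and at 28 DAA the lowest share, 21.6%, was found in class 5 from the weakest.

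Where 1 peak met 1 peak, in 2459 pairs, the summits lay a median of 40 bp apart and at most 50 bp apart in 57.3%. The 28 DAA interval was the wider in 80.8% of pairs, with a median of 390 bp at 28 DAA and 230 bp at 13 DAA, and in 67.1% it enclosed the 13 DAA interval. The fold enrichment was higher at 28 DAA in 59.5% of pairs, with a median ratio of 1.09. These folds include the pseudocount, whose part in the difference was not tested. The fragment number was higher at 28 DAA in 82.3% of pairs, with a median ratio of 2.78. A further 181 peaks at 28 DAA overlapped 2 peaks at 13 DAA and 17 overlapped 3, whereas 12 peaks at 13 DAA overlapped 2 at 28 DAA.

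VIV1 (HanXRQChr15g0468411) lies in the megabases from 14 to 16 Mb. Its position was traced from the pair of overlapping peaks that carries the fold enrichments tabulated for the gene, and the distance to the gene model was not checked. The peak at 28 DAA extended from 14963188 to 14964943, over 1756 bp, the 10th widest of the chromosome. It had 213 fragments at its summit (95% Poisson interval 185 to 244), the most of all 7695 peaks, over a local background of 38.7 fragments. Its fold enrichment of 5.39 was near the middle of the list, at percentile 42.1.

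At 13 DAA the same region was split into 2 peaks. The peak from 14963272 to 14964141 was 870 bp wide, with a fold of 5.72 and 56 fragments (42.3 to 72.7). That from 14964233 to 14964723 was 491 bp wide, with a fold of 6.37 and 62 fragments (47.5 to 79.5), rank 39 of 10131. The fragment numbers were high for both lists. The intervals of the fold were 4.70 to 6.17 at 28 DAA and 4.90 to 8.13 at 13 DAA for the second of these peaks. Within 50 kb on each side there were 15 peaks at 28 DAA, 8 of them shared, and 18 at 13 DAA, 11 of them shared.

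FUS3 (HanXRQChr15g0475761) lies in the megabases from 43 to 45 Mb and was traced in the same way. Its peak at 28 DAA extended from 43983134 to 43983857, over 724 bp, with a fold of 6.32 (5.22 to 7.60) and 112 fragments (92.2 to 135). At 13 DAA it extended from 43983642 to 43983783, over 142 bp, with a fold of 5.90 (3.90 to 8.61) and 25 fragments (16.2 to 36.9). The shortest 13 DAA intervals of the chromosome were 134 bp. The stage difference in fragments has no replicate check, and the fragment number was higher at 28 DAA in 82.3% of the 2459 pairs of 1 peak with 1 peak.

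A second pair lay beside it with higher values. It had a fold of 8.96 and 159 fragments at 28 DAA, from 43984086 to 43984779, and a fold of 7.69 and 34 fragments at 13 DAA, from 43984174 to 43984538. Within 50 kb on each side of the FUS3 peak there were 7 peaks at 28 DAA and 10 at 13 DAA, 5 of them shared in each list. They covered 3.41 kb at 28 DAA and 2.06 kb at 13 DAA, against 8.32 kb and 5.51 kb around VIV1.

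**Figure D4:**
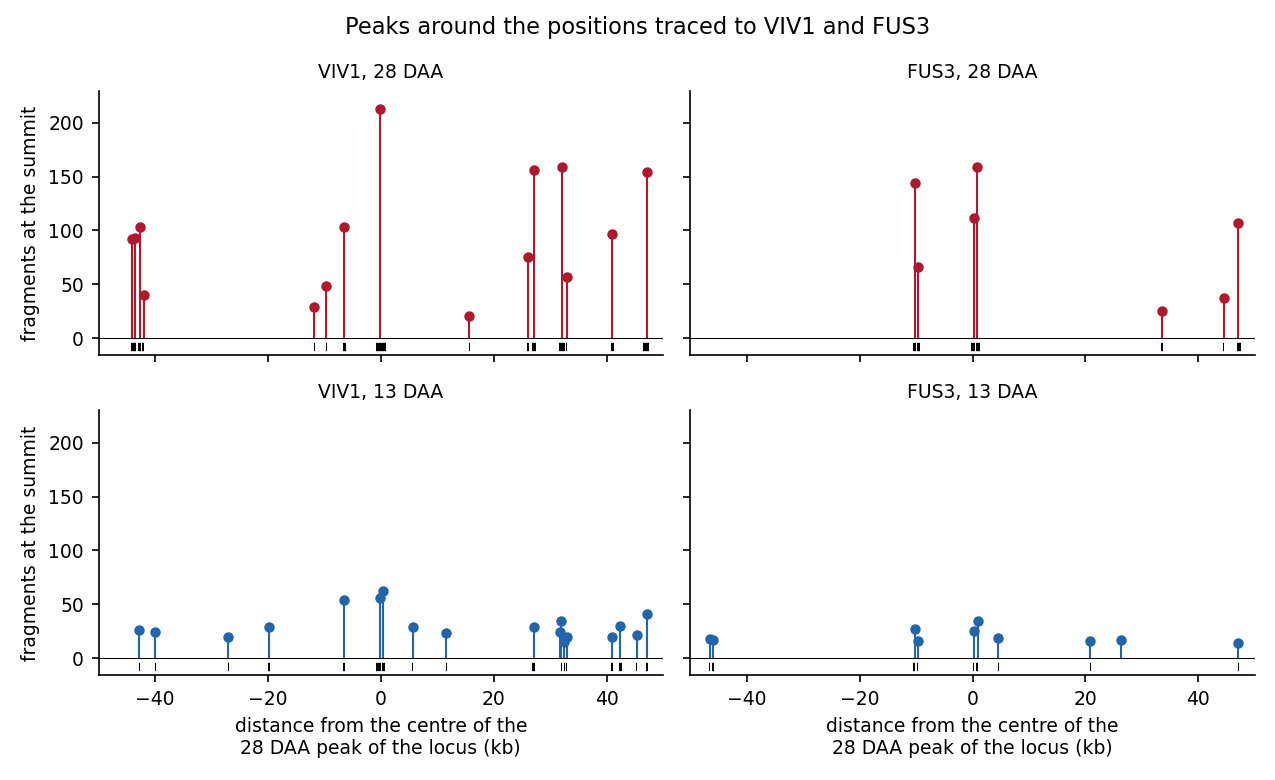
Peaks within 50 kb of the peaks traced to VIV1 and FUS3, by distance in kb from the centre of the 28 DAA peak (horizontal) and summit fragments (vertical), with a panel per list and black bars for the intervals. The VIV1 peak reaches 213 fragments at 28 DAA, and the highest near FUS3 is 159.

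The megabase that holds the VIV1 peak was one of the densest of the chromosome at 28 DAA. From 14 to 15 Mb there were 93 peaks at 28 DAA, rank 2 of 171 windows and percentile 99.1, and 75 at 13 DAA, rank 20 and percentile 86.8. The stage ratio of 1.24 ranked 5. Of its 13 DAA peaks, 50.7% were shared, rank 3, while its 28 DAA peaks had an ordinary share of 36.6%.

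The next megabase, from 15 to 16 Mb, stood near the middle. It held 50 peaks at 28 DAA, percentile 62.6, and 54 at 13 DAA, percentile 37.7. Its 28 DAA peaks had a high median fold enrichment of 7.17, rank 8. Together the megabases from 14 to 16 Mb held 143 peaks at 28 DAA, rank 12 of 170 spans of this length, and 129 at 13 DAA, rank 49.

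With all peaks counted, the megabases from 43 to 45 Mb had higher percentiles at 13 DAA. From 43 to 44 Mb there were 54 peaks at 28 DAA, percentile 68.7, and 73 at 13 DAA, percentile 81.0. From 44 to 45 Mb there were 61 at 28 DAA, percentile 77.5, and 83 at 13 DAA, percentile 96.2 and rank 7. The span from 43 to 45 Mb held 115 peaks at 28 DAA, rank 45 of 170, and 156 at 13 DAA, rank 6. This order depends on the threshold and the windows. With the q-value limited to 1e-10 it turned from 43 to 44 Mb, with percentiles of 66.1 at 28 DAA and 58.2 at 13 DAA, and from 44 to 45 Mb they were 60.2 and 80.1. In windows of 2 Mb the one that includes 44 to 45 Mb turned, with 87.6 at 28 DAA and 85.9 at 13 DAA, and the one that includes 43 to 44 Mb stood at 45.3 and 49.4. The stage ratios of 0.740 and 0.735 were close to the median of all windows, 0.735.

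**Figure D5:**
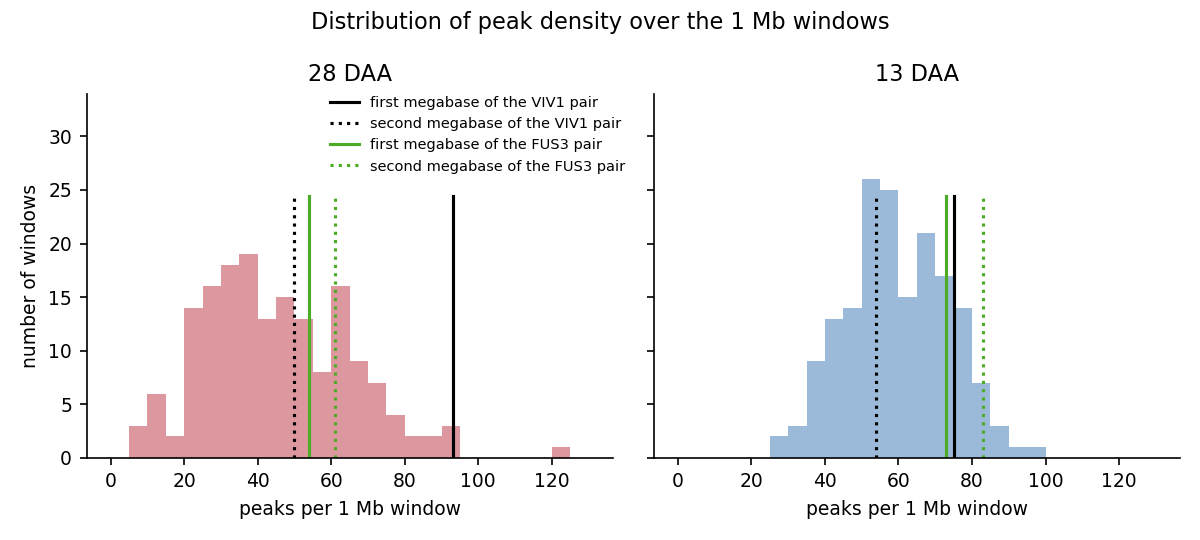
Distribution of the number of peaks over the 171 windows of 1 Mb of chromosome 15 in each list, with lines at the 4 windows from 14 to 16 Mb and from 43 to 45 Mb. The window from 14 to 15 Mb, with 93 peaks, lies at the upper end at 28 DAA, and that from 44 to 45 Mb, with 83, at 13 DAA.

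A cluster of peaks over a high local background stood apart. At 13 DAA 24 peaks (0.237%) had a background over 20 fragments, and 19 of them lay within 31.5 kb from 141727175 to 141758635. Each of the other 16 chromosomes held 3 to 202 peaks over this limit at 13 DAA, with a median of 15.5. The 19 peaks of the cluster had 96 to 134 fragments but folds of only 1.60 to 2.74, over backgrounds of 36.9 to 77.6. At 28 DAA this span held 12 peaks with folds of 1.93 to 3.03, over backgrounds of 25.7 to 42.5, and all 12 were shared. Without the window from 141 to 142 Mb the highest fragment number at 13 DAA was 93. At 28 DAA a background over 20 was found in 476 peaks (6.19%) spread over 113 windows, the VIV1 peak among them. Each of the other 16 chromosomes held 241 to 614 such peaks at 28 DAA, with a median of 379.5. The same limit was used for lists with median backgrounds of 7.04 fragments at 28 DAA and 2.81 at 13 DAA. The 2 counts are therefore not comparable between stages. The source of the high background was not tested.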

How the data were processed

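H3K4me3 ChIP-Seq peak lists of developing seeds at 28 and 13 DAA were used, 1 per stage. Peaks were called by the authors with MACS2, on reads quality-filtered with FASTX-Toolkit, aligned by BWA-MEM to the genome of line XRQ and cleared of duplicates (Picard MarkDuplicates). The sources used here do not say if immunoprecipitations were pooled. In the deposited lists the score is derived from the q-value, the fold enrichment is a ratio over the local background, and the p-value and q-value are given by the authors as −log10 values. Positions are those of the XRQ genome, counted from 1.

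Peaks were assigned to 1 Mb windows by their midpoint. A percentile is the share of windows with fewer peaks, ties counted in equal parts. Fragments at the summit were solved from fold and p-value (pseudocount 1, tolerance 0.001 on the −log10 scale), which gave a number for 100% of the peaks. The code was tested on simulated data. Read depth is not stated in the lists, whose lowest local backgrounds were 2.30 fragments at 28 DAA and 2.10 at 13 DAA. Precision is given as 95% Poisson and Wilson intervals, which cover counting error only.

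Named peaks were the 3 with the highest fold and the 3 widest in each list, and those at VIV1 and FUS3; named windows were the 3 richest, 3 poorest and 3 with the highest and lowest stage ratio. Other peaks and windows given were chosen after their values were seen. The chromosome, windows and peaks were chosen with earlier results of these data known. Alternatives were a stricter q-value, equal numbers of peaks, other overlap rules, covered bases, wider windows and windows of all chromosomes. Gene models, fatty acids and RT-qPCR were not analysed here. Calculations used Python 3.11.15 with pandas 2.3.3, numpy 2.4.6 and scipy 1.17.1, and plots matplotlib 3.10.9.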

Additional observations from a re-analysis of the deposited data

How the results depend on the processing

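With 1 library per stage, differences have no replicate check, and the lists hold only peaks past the authors' threshold, so an interval absent from a list may be marked below it. No paired analysis was possible because each stage has a single library. A length from a reference of the same build was not run for the density. Of the values recomputed under alternatives set at the outset, 4 changed direction and 39 moved, by over 1.5 times for a count, density or difference and beyond the counting interval for other values. The remaining 35 stayed within these bounds, which for counts, densities and differences are wider than counting error. Windows centred on the loci and other measures for the ratio of the first to the second 85.6 Mb were chosen after seeing the data, and of these 4 moved and 6 did not. The cause of these changes was not tested, apart from the smaller number of peaks that a stricter limit leaves.

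At a q-value of at most 1e-10, the 28 DAA minus 13 DAA difference was 3193 peaks, against -2436 with all peaks, and that of the shared percentages was -27.7, against 6.37. The 13 DAA list kept 2648 peaks, or 15.5 per Mb. Medians were a fold of 6.67 at 28 DAA and 6.78 at 13 DAA, and a width of 340 and 262.5 bp. The shared percentages were 20.6 and 48.3. Window percentiles were 92.1 (14 to 15 Mb, 13 DAA), 69.9 (15 to 16 Mb, 28 DAA), 58.2 (43 to 44 Mb, 13 DAA), and 60.2 at 28 DAA and 80.1 at 13 DAA (44 to 45 Mb). The first-to-second ratio at 13 DAA was 1.39.

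When both lists were limited to equally many of their strongest peaks, the differences were 52 peaks and -2.38 percentage points. The shares were 31.0% at 28 DAA and 33.4% at 13 DAA. The limit was the length of the whole 28 DAA list, so that list was unchanged. A small difference in peak number is set by this limit, and its direction is not a result. At 13 DAA the median fold was 5.49, the median width 202 bp and the percentile of 14 to 15 Mb 96.2. An overlap of 50% of both intervals gave 19.0% at 28 DAA and 14.4% at 13 DAA. With the summit inside an interval of the other list the shares were 30.6% and 26.9%, a difference of 3.68.

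By covered bases, the 13 DAA percentiles were 91.5 (14 to 15 Mb) and 88.0 (43 to 44 Mb), and the first-to-second ratio 1.19. In windows of 2 Mb, percentiles at 28 and 13 DAA were 94.7 and 70 for 14 to 15 Mb and for 15 to 16 Mb, 45.3 and 49.4 for 43 to 44 Mb, and 87.6 and 85.9 for 44 to 45 Mb. Among windows of all 17 chromosomes they were 91.6 (14 to 15 Mb, 13 DAA), 71.1 and 52.9 (15 to 16 Mb), 77.1 and 89.4 (43 to 44 Mb), and 84.2 (44 to 45 Mb, 28 DAA). Centred on FUS3, 1 Mb had percentiles of 81.5 at 28 DAA and 97.3 at 13 DAA.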

Other observations

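Peaks at most 1000 bp apart were joined into domains, a description that belongs to no comparison of the stages. The 7695 peaks at 28 DAA formed 5245 domains, 101 of them with 4 or more peaks. The 10131 at 13 DAA formed 9005, 11 of them with 4 or more. Domains of the other chromosomes are not given, so whether these numbers are usual cannot be told. The domain with the most peaks at 13 DAA held 6, from 141727175 to 141731641, within the cluster over a high local background. At 28 DAA the most was 5 peaks, as from 3230019 to 3233307, in the window with the most peaks at that stage.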
